A study of Mus musculus with 13 samples.

Results

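Fam111a, Zdhhc2, Tbpl1, Hmgb3 and Rab30 were followed across 13 Affymetrix Mouse Gene 1.0 ST arrays, 1 per sample, of mouse small intestine. These 5 of 19938 genes were chosen by their measured levels in FP-high against FP-low normal epithelium, where their arrays do not overlap, so their values in that contrast are a description and carry no test. Every probe set annotated with the symbol of 1 of these genes and no other was read. Hmgb3 had 2 such probe sets and the other 4 genes had 1 each, and for Hmgb3 the one with the higher mean over all arrays (10600017) was taken as main.

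All animals carried an Apc mutation and FP transgenes. The groups were intestinal adenomas (n = 3), normal epithelium beside adenomas with high FP expression (FP-high, n = 4) and normal epithelium beside adenomas with low FP expression (FP-low, n = 6). The labels do not spell out FP. The sources used here do not give the Apc allele, the promoter of the transgenes, the age of the animals or which arrays come from one animal. P-values therefore measure only how these samples vary, and that variation may be technical. Crypts were picked with glass capillaries and RNA of an isolated crypt was amplified before labelling, a step that can distort single transcripts. By its title, the study looked for age-linked expression changes that come before intestinal tumours. In samples of many cells, fewer cells of a type and less RNA per cell cannot be told apart.

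Fam111a is a serine protease that binds the sliding clamp PCNA, and in human cells it helps replication forks pass proteins trapped on DNA. Zdhhc2 is a palmitoyltransferase, one of a family of membrane enzymes that attach palmitate to cysteines of other proteins and so fix them to membranes. Tbpl1 is a relative of the TATA-binding protein Tbp that binds TFIIA but not the TATA box, and it is needed for sperm maturation in mice. Hmgb3 is an X-linked HMG-box protein that bends DNA and is known from blood progenitor cells of mice. Rab30 is a small GTPase of the Golgi apparatus. In the intestine, crypts hold the dividing cells and villi the differentiated absorptive cells.

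Promoter sequences in the RefSeq table (GRCm38.p6) were found for 3 of the 5 genes, Fam111a, Tbpl1 and Hmgb3, and they are shown because all 3 genes read lower on FP-high arrays. Each runs from 250 bases before to 50 bases after an annotated start. Capitals mark CCAAT, the box bound by NF-Y, and TTTGAA, a core of the cell cycle homology region, on either strand. Fam111a has a second annotated start just downstream, whose window (chr19:12573275-12573574, plus strand) overlaps the one shown and holds the same 3 CCAAT matches.
Fam111a (chr19:12573260-12573559, plus strand): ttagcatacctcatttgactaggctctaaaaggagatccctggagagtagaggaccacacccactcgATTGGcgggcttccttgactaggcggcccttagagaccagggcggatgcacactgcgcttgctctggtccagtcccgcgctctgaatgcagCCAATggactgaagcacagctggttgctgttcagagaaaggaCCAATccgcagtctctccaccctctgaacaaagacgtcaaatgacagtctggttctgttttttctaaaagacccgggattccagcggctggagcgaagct
Hmgb3 (chrX:71555667-71555966, plus strand): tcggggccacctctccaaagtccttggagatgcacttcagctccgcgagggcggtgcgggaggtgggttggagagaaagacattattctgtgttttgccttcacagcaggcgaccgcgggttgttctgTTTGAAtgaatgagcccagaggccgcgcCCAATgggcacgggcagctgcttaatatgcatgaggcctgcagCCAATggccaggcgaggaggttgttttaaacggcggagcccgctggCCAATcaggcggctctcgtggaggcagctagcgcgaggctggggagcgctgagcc
Tbpl1 (chr10:22731398-22731697, minus strand): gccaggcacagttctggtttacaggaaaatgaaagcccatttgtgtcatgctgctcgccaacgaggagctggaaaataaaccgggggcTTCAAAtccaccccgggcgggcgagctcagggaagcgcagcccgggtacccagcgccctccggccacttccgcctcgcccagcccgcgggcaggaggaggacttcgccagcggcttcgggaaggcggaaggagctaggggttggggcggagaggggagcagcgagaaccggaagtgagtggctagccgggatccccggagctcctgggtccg

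CCAAT occurred 3 times in the Fam111a promoter, at 183, 92 and 50 bases before the start, and 3 times in that of Hmgb3, at 94, 51 and 5 bases before it. The Tbpl1 window held no CCAAT. Of 32851 promoters in the table, 37.4% held at least 1 CCAAT and 3.37% held 3 or more. TTTGAA occurred once each in Hmgb3 (122 bases before the start) and Tbpl1 (162 bases before it) and in 17.9% of all promoters, and it overlapped no CCAAT match. The E2F-type cores TTTGGCG and TTTCCCG (1.6% and 3.4% of all promoters), the TATA box core TATAAA (13.6%) and the E-box CACGTG (7.2%), all searched on both strands, had no match in these 3 windows. Matches are descriptions of the letters and say nothing about binding in these samples.

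One array, FP-high replicate 1, was unlike the rest. The SD of its log2 values over the 23410 probe sets with a gene symbol was 1.21, against 1.89 to 2.10 on the other 12, and its median correlation with them was 0.76, against 0.94 to 0.97 for the others. Values of the 5 genes are therefore given with and without it, and also as percentiles among all tested probe sets of the same array, which do not depend on the spread of an array. The epithelial marker Epcam lay at the 94.7th to 97.1st percentile on all 13 arrays, and villin (Vil1) at the 83.8th to 95.6th on 12 and at the 71.9th on FP-high replicate 1. The leukocyte gene Ptprc lay at the 54.8th to 66.9th percentile on adenoma arrays and at the 28.3rd to 52.3rd on normal arrays, while the other 9 measured genes of the T lymphocyte list had lower means in adenomas than in normal samples. Apc itself differed by 0.26 ± 0.19 (SE) log2 between adenomas and normal arrays (limma adjusted p = 0.673).

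The 4 genes Fam111a, Zdhhc2, Tbpl1 and Hmgb3 read lower in FP-high than in FP-low epithelium, and Rab30 read higher. For each of these 5 genes all 4 FP-high arrays lay on one side of all 6 FP-low arrays. Of all tested probe sets, 1.51% had every FP-high array below every FP-low array and 0.743% had every one above. Without FP-high replicate 1 the 5 genes still did not overlap, while these shares were 1.81% and 1.39%. The separation was the ground for choosing the genes and nothing is read from it.

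**Figure D1:**
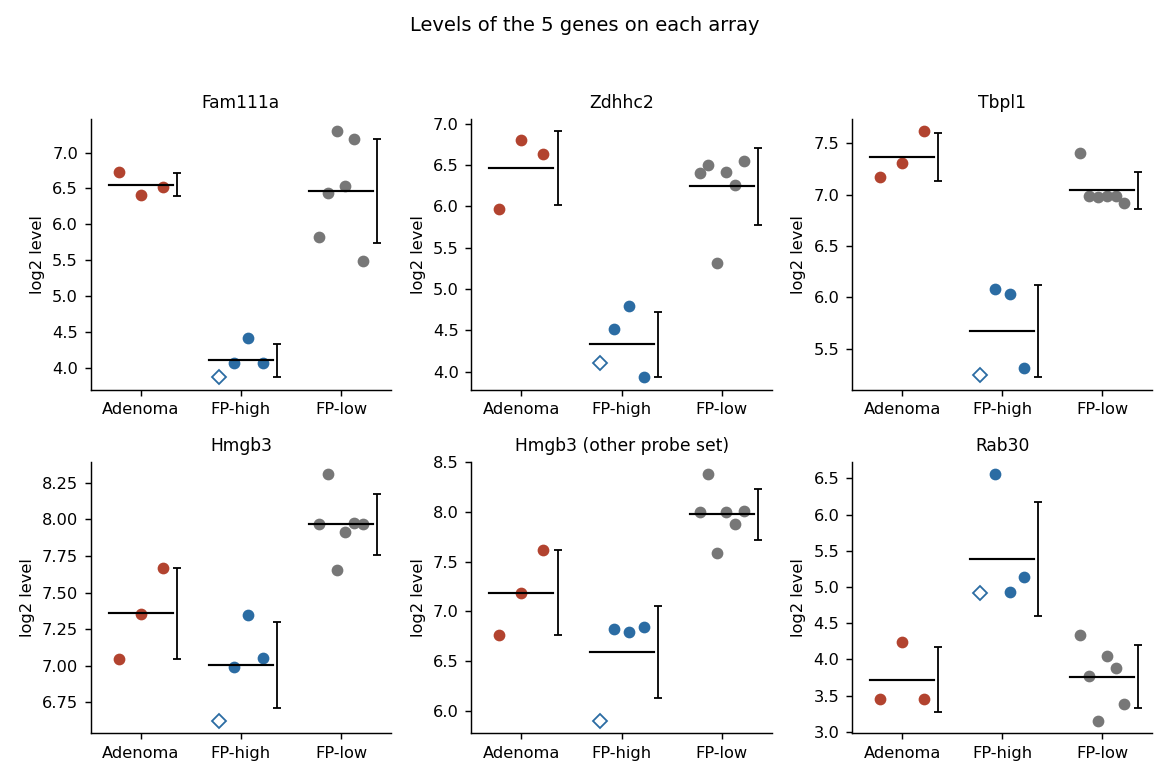
Log2 level (vertical axis) of the 5 genes, with both probe sets of Hmgb3, on each of 13 arrays in adenomas, FP-high and FP-low epithelium; circles are arrays, the open diamond is FP-high replicate 1, lines are group means and bars 1 SD. Fam111a lies between 3.87 and 4.42 on FP-high arrays and between 5.49 and 7.30 on FP-low arrays, with adenomas among the FP-low values, while Rab30 is highest on the FP-high arrays.

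Fam111a had log2 levels of 3.87, 4.08, 4.42 and 4.07 on FP-high replicates 1 to 4, against a lowest value of 5.49, a median of 6.49 and a highest value of 7.30 on FP-low arrays. The FP-high values sat close together (SD 0.23), whereas the FP-low values were more spread (SD 0.72). Means were 4.11 in FP-high and 6.47 in FP-low samples, a difference of -2.36 ± 0.32 (limma SE), or 5.12-fold lower in FP-high epithelium. The nearest arrays of the groups, FP-high replicate 3 and FP-low replicate 6, were 1.07 apart. The difference was -2.28 without FP-high replicate 1. As a percentile of its array, Fam111a was at 19.0, 35.1, 45.5 and 33.4 on FP-high replicates 1 to 4 and at 71.0 to 89.6 on FP-low arrays.

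Zdhhc2 had levels of 4.10, 4.51, 4.80 and 3.93 on the FP-high arrays, against a lowest value of 5.31, a median of 6.41 and a highest value of 6.55 on FP-low arrays. FP-low replicate 3 was the low one, since the other 5 FP-low arrays read 6.26 or more. The means of 4.33 ± 0.39 in FP-high and 6.24 ± 0.46 in FP-low samples (SD, n = 4 and 6) differed by -1.91 ± 0.27 (limma SE), or 3.75-fold lower in FP-high epithelium. Without FP-high replicate 1 the difference was -1.83. Percentiles were 27.2, 46.9, 55.6 and 30.1 on FP-high arrays and 68.7 to 83.7 on FP-low arrays. Fam111a and Zdhhc2 did not share their order of arrays within FP-low samples, for FP-low replicate 3 had the highest Fam111a and the lowest Zdhhc2 level.

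Tbpl1 had levels of 5.25, 6.08, 6.03 and 5.32 on the FP-high arrays, against a lowest value of 6.92, a median of 6.99 and a highest value of 7.41 on FP-low arrays. FP-high arrays thus fell into a lower pair (replicates 1 and 4) and a higher pair (replicates 2 and 3), while 5 of 6 FP-low arrays lay between 6.92 and 6.99. Its means were 5.67 ± 0.45 in FP-high and 7.04 ± 0.18 in FP-low samples (SD, n = 4 and 6). The difference was -1.38 ± 0.19 (limma SE), or 2.60-fold lower in FP-high epithelium, and -1.23 without FP-high replicate 1. By rank, Tbpl1 stood at the 75.1, 80.1, 77.8 and 68.9 percentile on FP-high arrays and between 85.3 and 88.0 on FP-low arrays.

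Hmgb3 was lower in FP-high samples on the log2 scale, with a smaller difference than the other 3 lower genes on its main probe set. Its main probe set read 6.63, 6.99, 7.35 and 7.06 on the FP-high arrays, against a lowest value of 7.65, a median of 7.97 and a highest value of 8.31 on FP-low arrays. The difference was -0.96 ± 0.17 (limma SE), or 1.95-fold lower in FP-high epithelium, and the nearest arrays were 0.31 apart. The other probe set (10352954) read 5.90, 6.83, 6.79 and 6.85 on FP-high arrays and 7.59 to 8.38 on FP-low arrays, a difference of -1.38 ± 0.23. Both probe sets are annotated with the same transcripts, so they are not independent measurements, and HMG-box genes have near-identical copies whose signal could be shared. Without FP-high replicate 1 the differences were -0.83 and -1.15.

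On the percentile scale the main Hmgb3 probe set lay at 94.9 on FP-high replicate 1, above all 6 FP-low arrays (90.8 to 92.7), and at 87.6, 88.4 and 88.5 on FP-high replicates 2 to 4, below them. Its groups therefore overlapped by rank. After quantile normalization its difference was -0.25. For the other probe set, FP-high arrays at 85.0 to 89.9 stayed below FP-low arrays at 90.9 to 92.9. Hmgb3 lies on the X chromosome. Xist, the long RNA behind X inactivation, was at 8.88 to 9.71 on adenoma arrays, 8.64 on FP-high replicate 4 and 8.74 on FP-low replicate 6, and at 2.34 to 3.61 on the other 8. The main Hmgb3 probe set read 7.06 on FP-high replicate 4 and 7.97 on FP-low replicate 6, inside the range of the other arrays of each group. These are single arrays with high Xist in their groups, and whether sex bears on Hmgb3 was not tested.

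Rab30 had levels of 4.92, 6.56, 4.93 and 5.14 on the FP-high arrays, against a lowest value of 3.15, a median of 3.82 and a highest value of 4.34 on FP-low arrays. FP-high replicate 2 was the high one and the other 3 lay between 4.92 and 5.14. Means of 5.38 ± 0.79 in FP-high and 3.76 ± 0.43 in FP-low samples (SD, n = 4 and 6) gave a difference of 1.62 ± 0.34 (limma SE), or 3.08-fold higher in FP-high epithelium. The difference was 1.78 without FP-high replicate 1 and 1.23 without FP-high replicate 2. Rab30 stood at the 62.3, 84.6, 59.0 and 64.4 percentile on FP-high arrays and at 14.5 to 44.1 on FP-low arrays, so it lay below the median probe set of every FP-low array. The deposited table holds no detection calls, so whether Rab30 on FP-low arrays, or Fam111a and Zdhhc2 on FP-high arrays, was above background was not tested, and their folds may understate the difference.

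**Figure D2:**
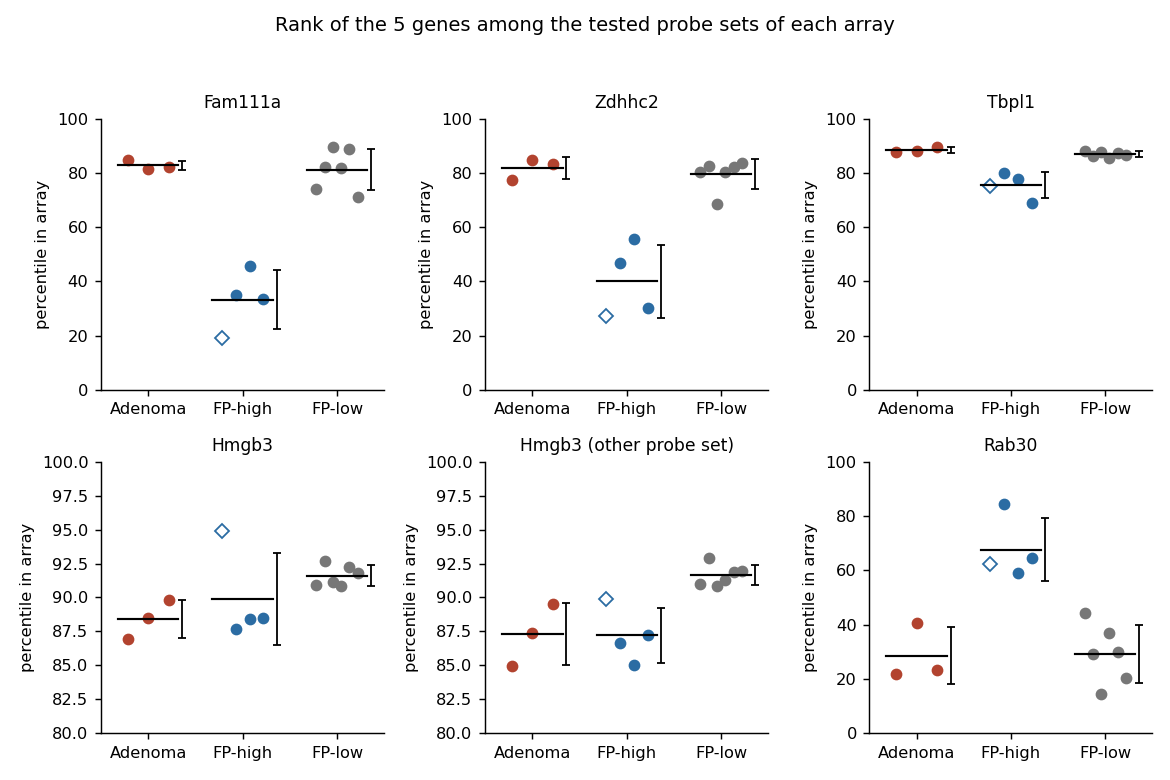
Percentile of each gene among the 23410 tested probe sets of its array (vertical axis, the whole scale, and its upper end alone for the 2 Hmgb3 panels) in adenomas, FP-high and FP-low epithelium; symbols are as for the plot of log2 levels, with lines at means and bars of 1 SD. By rank the groups stay apart for Fam111a, Zdhhc2, Tbpl1 and Rab30, and FP-high replicate 1 (open diamond) lies above the FP-low arrays in the main Hmgb3 panel at 94.9.

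Adenomas were then set against all 10 normal arrays. On adenoma arrays Xist read 8.88 to 9.71 and the Y-linked Eif2s3y 2.01 to 2.22, the pattern of female samples. Among normal arrays only FP-high replicate 4 and FP-low replicate 6 shared it, and the rest read 2.34 to 3.61 and 4.43 to 6.87. Sex and adenoma therefore largely coincide, and their parts in this contrast cannot be told apart. The mean over normal arrays counts each array once, and that mean is uncorrelated with the FP-high minus FP-low difference that chose the genes when all arrays vary alike. They did not, since the estimated array weight was 0.06 for FP-high replicate 1 and 0.54 to 2.56 for the others. The test also shares its estimate of spread with the contrast that chose the genes. Adjusted p-values of the 5 genes are therefore not free of that choice. Tbpl1, Zdhhc2 and Fam111a had higher means in adenomas and Hmgb3 and Rab30 lower ones, but none of the 5 passed the limma test at an adjusted p of 0.05. Over all tested probe sets, 0.799% were called higher and 0.0171% lower in adenomas. For none of the 5 genes did the 3 adenoma arrays all lie outside the range of the normal arrays.

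Fam111a had levels of 6.72, 6.41 and 6.52 on adenoma replicates 1 to 3, all inside its FP-low range and all above the FP-high arrays. Its adenoma mean of 6.55 ± 0.16 (SD, n = 3) exceeded the normal mean of 5.52 by 1.03 ± 0.32 (limma SE, adjusted p = 0.248). It differed from the FP-high mean by 2.44 ± 0.37 and from the FP-low mean by 0.09 ± 0.35. Each normal group alone took part in choosing the genes, so these last differences carry no test.

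Zdhhc2 had adenoma levels of 5.96, 6.80 and 6.64, with 2 of 3 above every FP-low array and all 3 above every FP-high array. Its difference from the normal mean was 0.99 ± 0.27 (limma SE, adjusted p = 0.165), from FP-high 2.13 ± 0.32 and from FP-low 0.22 ± 0.29. Tbpl1 had adenoma levels of 7.17, 7.31 and 7.62. Adenoma replicate 3 lay above every normal array, and the other 2 adenomas lay above 5 of the 6 FP-low arrays. Tbpl1 differed from the normal mean by 0.87 ± 0.20 (limma SE, adjusted p = 0.069), from FP-high by 1.70 ± 0.23 and from FP-low by 0.32 ± 0.21. With FP-high replicate 1 or 2 left out and the group weights kept, Tbpl1 differed by 0.82 (adjusted p = 0.032) and 0.93 (adjusted p = 0.048). With each remaining normal array counted once, the values were 0.73 (adjusted p = 0.051) and 0.83 (adjusted p = 0.084), so those passes depended on the weight given to FP-high arrays, whose low values chose the gene. Without FP-low replicate 1, counted the same way, Tbpl1 differed by 0.97 (adjusted p = 0.048). With the group weights kept it differed by 0.92 (adjusted p = 0.067), so this pass too depended on the weight given to FP-high arrays.

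For Hmgb3 the adenoma mean lay between those of the normal groups on the log2 scale. Its main probe set read 7.05, 7.36 and 7.67 on adenoma replicates 1 to 3, overlapping both FP-high and FP-low arrays, and the other probe set read 6.76, 7.19 and 7.62. Differences from the normal mean were -0.22 ± 0.18 (limma SE, adjusted p = 0.694) and -0.23 ± 0.23 (adjusted p = 0.730). The main probe set differed by 0.35 ± 0.21 from FP-high and by -0.61 ± 0.19 from FP-low samples. By percentile its means were 88.4 in adenomas, 89.8 in FP-high and 91.6 in FP-low samples, and after quantile normalization the log2 means were 7.17, 7.55 and 7.80 in the same order of groups. On those scales the adenoma mean was thus the lowest of the 3. Rab30 read 3.46, 4.24 and 3.46 on adenoma arrays, all inside its FP-low range and below the FP-high arrays. Its difference from the normal mean was -0.69 ± 0.34 (limma SE, adjusted p = 0.547), from FP-high -1.67 ± 0.40 and from FP-low -0.04 ± 0.37.

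By group mean, the order for Fam111a, Zdhhc2 and Tbpl1 was adenoma, FP-low, FP-high, with adenoma and FP-low arrays overlapping and FP-high apart. Hmgb3 ran FP-low, adenoma, FP-high on the deposited log2 scale, with adenoma arrays overlapping both neighbours, and FP-low, FP-high, adenoma by percentile and after quantile normalization for its main probe set. The latter order included FP-high replicate 1. On those scales adenoma and FP-high means of the other probe set nearly coincided. Rab30 ran FP-high, FP-low, adenoma, the last 2 overlapping.

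Genes with related roles were read from lists, each gene on its brightest probe set, with the 5 genes left out. Between FP-high and FP-low samples limma called 0 of the 23410 probe sets (0%), and 2979 had an unadjusted p under 0.05, so no list gene passed and their differences are given as values. Leaving out FP-high replicate 1 moved many of them by over 1.5 times, and such values are given beside them. The median difference over all tested probe sets was 0.05, or 0.02 without FP-high replicate 1. Of 26 replication fork factors, the company of Fam111a, 22 had lower means in FP-high than in FP-low samples and the median difference was -0.50, or -0.32 without FP-high replicate 1. Tipin, part of the fork protection complex, was at -1.92 ± 0.49 (SE) and Wdhd1, which couples helicase and polymerase, at -1.59 ± 0.32. In 3 of the 26, Rfc4, Rpa3 and Wdhd1, all FP-high arrays lay below all FP-low arrays, as in 1.51% of all probe sets. Pcna, the partner of Fam111a, was at -0.94 ± 0.41, or -0.34 without FP-high replicate 1, and its level was 8.19 on FP-high replicate 1 and 10.25 to 10.94 on the other 3 FP-high arrays, against 10.61 to 11.19 on FP-low arrays. At the other end of the list were Rpa2 (0.16 ± 0.25) and the polymerase subunit Pold1 (0.15 ± 0.14).

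Among the 23 other Zdhhc enzymes the median was -0.15 with 17 lower in FP-high samples, or -0.06 with 14 lower without FP-high replicate 1. Their differences ran from -1.52 ± 0.36 for Zdhhc20, a plasma membrane palmitoyltransferase, and -1.12 ± 0.48 for Zdhhc13, to 0.28 ± 0.15 for Zdhhc25 and 0.31 ± 0.27 for Zdhhc9. Zdhhc13 was at -0.53, Zdhhc25 at 0.12 and Zdhhc9 at 0.49 without FP-high replicate 1. Enzymes that remove palmitate had a median of -0.44 over 8 genes, or -0.02 without FP-high replicate 1. Of 7 measured proteins that Zdhhc2 is known to modify, the tetraspanins Cd9 and Cd151 were at -1.20 ± 0.52 and -0.54 ± 0.31 and the scaffolds Dlg4 and Akap5 at 0.20 ± 0.14 and 0.15 ± 0.14. Cd9 was at -0.51, Cd151 at -0.34 and Akap5 at 0.0084 without FP-high replicate 1. The median of these proteins was -0.27 with all arrays and above 0 without FP-high replicate 1.

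General transcription factors around Tbpl1 had a median of -0.43 over 23 genes, of which 18 were lower in FP-high samples, or -0.25 with 20 lower without FP-high replicate 1. The TFIID subunits Taf9 and Taf2 were at -1.83 ± 0.54 and -1.66 ± 0.40, and Taf4 and Taf9b at 0.32 ± 0.36 and 0.21 ± 0.24. Without FP-high replicate 1 Taf9 was at -1.03, Taf4 at -0.21 and Taf9b at 0.06. Taf9 and Taf12, 2 of the 23, had all FP-high arrays below all FP-low arrays, against 1.51% of all tested probe sets. The paralog Tbp read 5.75, 5.36, 6.02 and 5.52 on FP-high arrays and 5.70 to 7.85 on FP-low arrays, so its groups overlapped. Other HMG proteins had a median of -0.48 over 11 measured genes, or -0.24 without FP-high replicate 1. The nucleosome-binding Hmgn2 was at -1.03 ± 0.30 and the HMG-box protein Tox at -0.94 ± 0.39, while the paralogs Hmgb1 and Hmgb2 were at -0.64 ± 0.41 and -0.48 ± 0.22 and Hmgb4 at 0.31 ± 0.28. Leaving out FP-high replicate 1 gave -0.52 for Tox, -0.25 for Hmgb1, -0.24 for Hmgb2 and -0.05 for Hmgb4. Hmga2, another chromatin protein of the list, was at -0.21 ± 0.19.

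The 48 other Rab GTPases had a median of -0.01, with 24 lower and 24 higher in FP-high samples, or 0.05 without FP-high replicate 1. Their differences ran from -1.38 ± 0.51 for the endosomal Rab21 and -0.97 ± 0.52 for Rab18 to 0.48 ± 0.36 for Rab5b and 0.60 ± 0.38 for Rab32. Rab21 was at -0.82, Rab18 at -0.35 and Rab32 at 0.12 without FP-high replicate 1. Genes of Golgi structure and traffic had a median of -0.25 over 16 genes, or -0.03 without FP-high replicate 1, with the tethering factor Uso1 at -0.78 ± 0.39 (-0.30 without that array) and the golgin Gcc1 at 0.33 ± 0.20. Between adenomas and normal arrays limma called none of the genes in the lists of fork factors, Zdhhc enzymes, palmitate removal, Zdhhc2 substrates, transcription factors, HMG proteins, Rab GTPases and Golgi genes, beside 0.799% called higher and 0.0171% lower over all probe sets, a share too small to read anything from so few genes. Medians of that comparison ran from -0.14 for fork factors to 0.44 for Zdhhc2 substrates, against -0.09 over all tested probe sets.

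**Figure D3:**
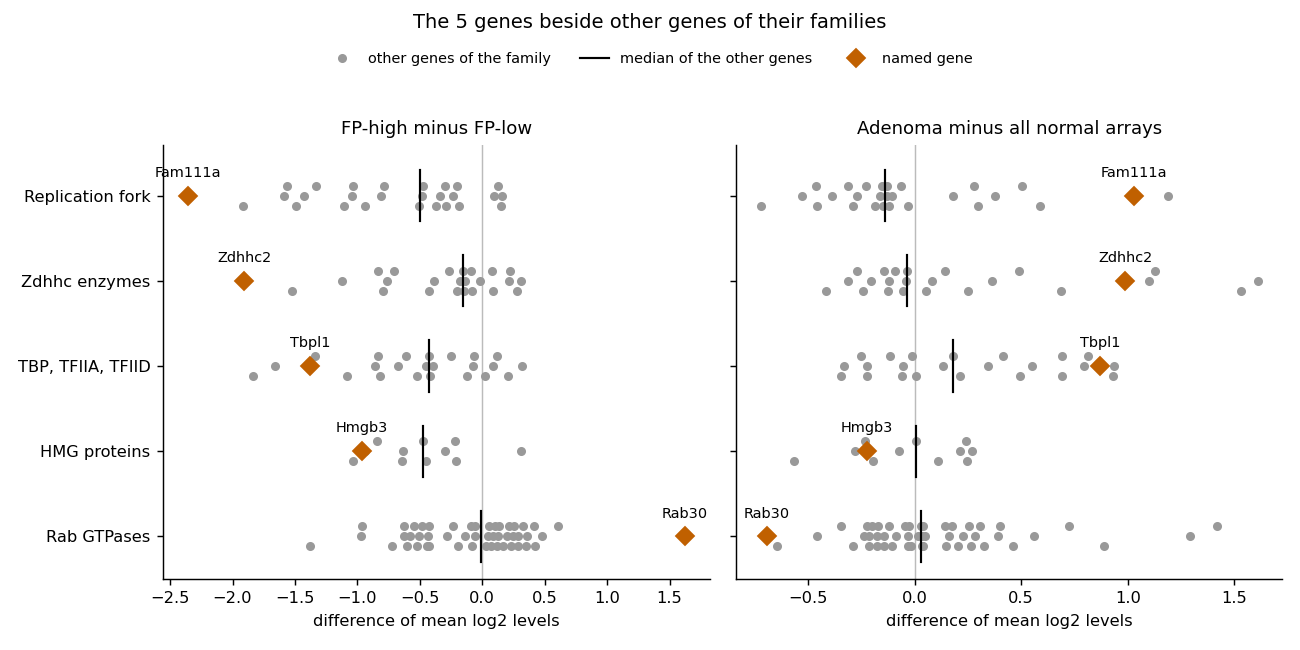
Difference of mean log2 levels (horizontal axis) for each of the 5 genes (diamonds) and the other genes of its list (circles, with a line at their median), as FP-high minus FP-low on the left and adenoma minus all normal arrays on the right. Fam111a at -2.36 and Zdhhc2 at -1.91 lie left of the other genes of their lists and Rab30 at 1.62 right of the other Rab genes on the left side, where the 5 genes were chosen for their difference.

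Marker lists of the cells that a sample can hold differed between the groups too. The mean level of 36 proliferation genes was 5.17, 6.16, 6.34 and 5.66 on the FP-high arrays, against 6.48 to 6.87 on FP-low arrays, and the median difference was -0.91, or -0.65 without FP-high replicate 1. All 36 had lower means in FP-high samples and 10 of them had FP-high arrays all below FP-low arrays, against 1.51% of all probe sets. Mki67, a marker of dividing cells, was at -1.43 ± 0.39 (SE) and Prc1 at -1.81 ± 0.36. Enterocyte markers had a median difference of 0.69 over 19 genes, with list means of 6.26 to 9.95 on FP-high and 6.50 to 8.62 on FP-low arrays, and of 1.38 without FP-high replicate 1. Crypt and stem cell genes had a median of -0.49 over 12 genes. All 7 measured markers of Paneth cells, the antimicrobial cells of the crypt base, had lower means in FP-high samples (median -1.29, or -0.36 without FP-high replicate 1), and the list means were 6.66 to 10.14 on FP-high and 9.24 to 10.42 on FP-low arrays. Higher means in FP-high samples, the direction of Rab30, were found in several lists, among them 18 of the 19 enterocyte markers. So had 9 of 10 T lymphocyte markers (median 0.32), with list means of 4.92 to 6.15 on FP-high and 4.29 to 5.41 on FP-low arrays. Stromal and endothelial markers were higher in 11 of 14 (median 0.19, or 0.06 without FP-high replicate 1) and tuft cell markers in 5 of 8 (median 0.28, or 0.22). Of 12 myeloid markers 10 had higher means in FP-high samples (median 0.31, or 0.16 without FP-high replicate 1). Their list means were 4.496 to 4.565 on FP-high and 4.108 to 4.495 on FP-low arrays, which did not overlap but almost touched. The part of these shifts in the differences of Fam111a, Zdhhc2, Tbpl1, Hmgb3 and Rab30 was not tested.

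In adenomas the proliferation list had means of 6.36, 6.13 and 6.66, and a median difference from normal arrays of -0.08. Adenoma replicate 3 lay in the FP-low range of that list, replicate 2 in the FP-high range and replicate 1 between them. Limma called 3 marker genes higher in adenomas, beside 0.799% of all tested probe sets. The hyaluronan receptor Cd44 (1.83 ± 0.34, SE, adjusted p = 0.027) was 1 of 12 crypt and stem cell genes. Ptprc (0.83 ± 0.16, adjusted p = 0.031) was 1 of 10 T lymphocyte genes. The stromal proteoglycan Dcn (2.38 ± 0.45, adjusted p = 0.027) was 1 of 14 stromal and endothelial genes. Dcn was uneven among adenomas, with an SD of 1.61 against 0.24 in FP-high and 0.23 in FP-low samples. No gene of the other marker lists was called. Ptprc was the only 1 of 10 genes of the T lymphocyte list with a higher mean in adenomas, and the list's median was -0.45. Col1a1 and Pecam1, markers of fibroblasts and endothelium, differed by -0.05 ± 0.13 and -0.22 ± 0.16. What other cells add to the adenoma levels of the 5 genes was not tested.

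**Figure D4:**
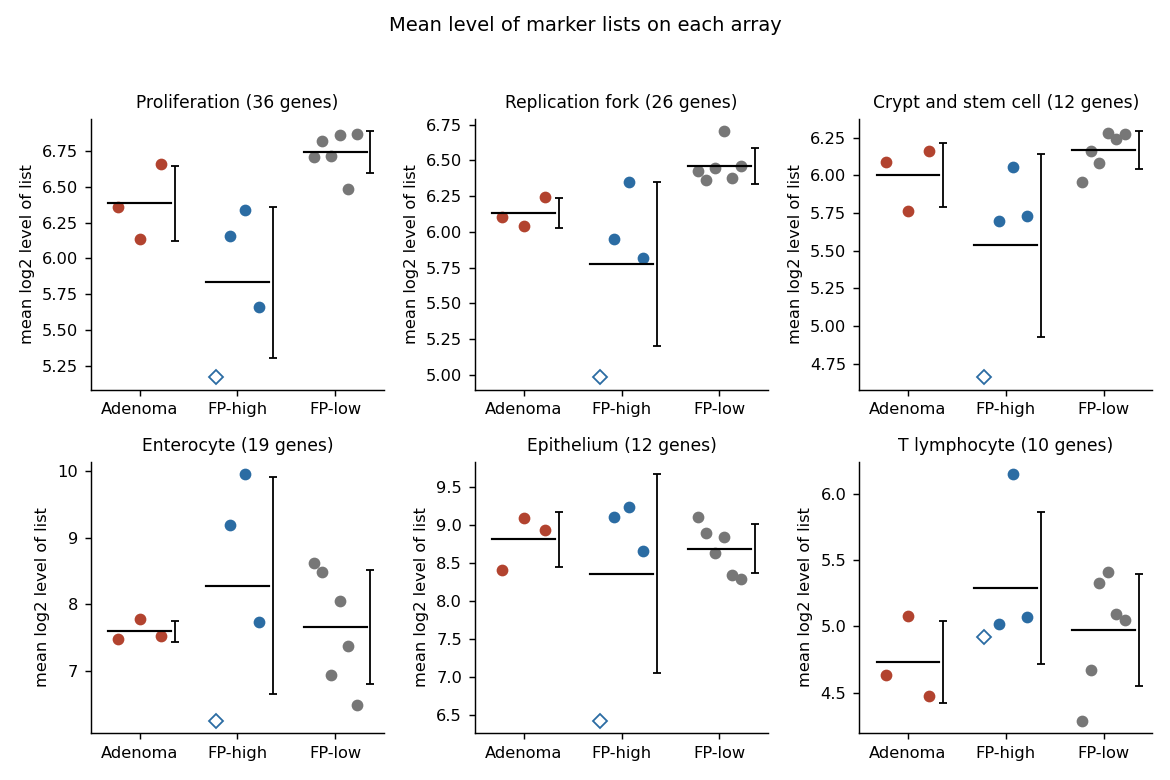
Mean log2 level (vertical axis) of 6 marker lists on each array in adenomas, FP-high and FP-low epithelium, with lines at means, bars of 1 SD and FP-high replicate 1 as an open diamond. The proliferation list lies between 5.17 and 6.34 on FP-high arrays, below all FP-low arrays, whereas the enterocyte list overlaps between the groups.

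The genes whose pattern was most like each of the 5 were taken by Pearson r over the 12 arrays without FP-high replicate 1, among 19937 other genes. These r values mix differences between groups with spread inside them, since the arrays fall into 3 groups, so r over the same 12 arrays after removing group means is given beside them as a description. For Fam111a the closest were Wdr75, an rRNA processing factor (r = 0.94, and 0.67 within groups), Mtmr9 (0.93 and 0.71) and Arfgef3 (0.92 and 0.68). For Zdhhc2 they were Mapre1, a protein of microtubule tips (0.95 and 0.85), Tbpl1 (0.91 and 0.49) and Bzw1 (0.91 and 0.60). With FP-high replicate 1 included, the r of Arfgef3 to Fam111a was 0.28 and that of Mapre1 to Zdhhc2 was 0.83.

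For Tbpl1 the closest genes were Taf9 (r = 0.95, and 0.77 within groups), the nuclear pore gene Nup160 (0.94 and 0.94) and the centriole assembly gene Stil (0.93 and 0.59). Nup160 kept its likeness to Tbpl1 within groups, where it ranked 2 of 19937. For Hmgb3 they were the mitochondrial ubiquitin ligase Mul1 (0.95 and 0.89), 1700102P08Rik (0.90 and 0.82) and Pop4, a subunit of RNase P (0.90 and 0.84). For Rab30 they were Pgr15l (0.94 and 0.86), Tom1l2 (0.93 and 0.85) and the leukocyte receptor Cd300a (0.91 and 0.88). Tom1l2 differed by only 0.14 between FP-high and FP-low means and ranked 18 in likeness to Rab30 within groups. With FP-high replicate 1 included, 1700102P08Rik had r = 0.34 to Hmgb3 and Pgr15l r = 0.61 to Rab30.

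Between pairs of the 5 genes the within-group r over the same 12 arrays ran from -0.52 for Fam111a with Zdhhc2 to 0.72 for Zdhhc2 with the main probe set of Hmgb3, and the 2 Hmgb3 probe sets correlated at 0.89. Rab30 ran opposite to the other 4 genes between the normal groups, the contrast that chose the genes. Its r with them was -0.82 to -0.55 over the 12 arrays, adenomas included (main probe sets). Within groups its values ran from -0.26 with Fam111a to 0.42 with Tbpl1.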

How the data were processed

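The authors deposited 1 table of log2 levels, with 35556 probe sets and 13 arrays, made with Affymetrix Command Console per the design text, and with Expression Console and Transcriptome Analysis Console per the submitters' processing notes. The sources used here give no versions and no background correction, normalization or summarisation, and log2 was inferred from the values. GEO's platform annotation supplied the gene symbols: 23410 had a gene symbol and were tested, and 21789 had exactly 1. The table names no genome build, so no gene coordinates are given besides the promoter windows of the RefSeq table.

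A model with 3 group means was fitted to all 13 arrays with limma (version 3.58.1, R 4.3.3), with two-sided moderated tests and Benjamini-Hochberg adjustment across 23410 probe sets. In adenoma minus normal, FP-high and FP-low means had weights of 0.4 and 0.6. The fit was tested on simulated data. The genes and lists were chosen with earlier results of these data known. Named besides the 5 genes were, for each, the 3 genes with the highest r, up to 2 genes at each end of each list, list genes that limma called, and Hmgb1, Hmgb2, Tbp, Pcna, Mki67, Xist, Eif2s3y, Epcam and Apc whatever their values. Vil1, Ptprc, Col1a1 and Pecam1 were read as tissue markers. Alternatives were quantile normalization, array weights, a replicate block, eBayes with trend and robust settings, equal group weights, a filter on level, all probe sets, other probe sets of a gene, percentiles and leaving out each array. Leaving out a normal array with each remaining one counted once, and array weights in the normal mean, were added after seeing the data.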

Additional observations from a re-analysis of the deposited data

Results flagged for a closer look

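Arrays that lay far from the others of their group were sought with Dixon's criterion at 95% in FP-high and FP-low samples, for the 6 probe sets of the 5 genes and 13 marker genes. Of 38 groups of values, 8 held such an array, and chance alone flags about 1 in 20 groups. Among the 5 genes these were Zdhhc2 on FP-low replicate 3 (5.31, the low one), Tbpl1 on FP-low replicate 1 (7.41, the high one), Rab30 on FP-high replicate 2 (6.56, the high one) and the other probe set of Hmgb3 on FP-high replicate 1 (5.90, the low one). Among the markers they were Xist on FP-high replicate 4 (8.64) and FP-low replicate 6 (8.74), Eif2s3y, a Y-linked gene, on FP-low replicate 6 (2.07) and Epcam on FP-low replicate 4 (9.58). Eif2s3y was also low on FP-high replicate 4 (2.25). Both arrays with high Xist thus have the pattern of female samples, in groups whose other arrays have the reverse.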

How the results depend on the processing

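The FP-high minus FP-low difference kept its sign for all 5 genes under every alternative run. That of Hmgb3 was -0.25 after quantile normalization and -1.38 on its other probe set, against -0.96. In adenoma minus normal the sign was also kept for the 5 genes under every alternative. Array weights, which gave FP-high replicate 1 a weight of 0.06, gave Fam111a 1.05 (adjusted p = 0.030), Zdhhc2 0.98 (adjusted p = 0.012) and Tbpl1 0.80 (adjusted p = 0.0067), and equal weights of the normal groups gave Tbpl1 1.01 (adjusted p = 0.032). In these fits, and where an array is left out, the contrast can draw on the FP-high values that chose the genes, so passing there is no independent support. With the array weights used in the normal mean too, an alternative chosen after seeing the data, Fam111a was at 0.82 (adjusted p = 0.076), Zdhhc2 at 0.79 (adjusted p = 0.034) and Tbpl1 at 0.68 (adjusted p = 0.015), with 667 probe sets called higher and 468 lower. Without 1 array the Tbpl1 difference ran from 0.74 to 0.97 with the group weights kept and from 0.73 to 0.97 with each remaining normal array counted once, also chosen after seeing the data. Over all alternatives adjusted p ranged from 0.0067 to 0.459 for Tbpl1, 0.012 to 0.638 for Zdhhc2, 0.030 to 0.823 for Fam111a, 0.14 to 0.945 for Hmgb3 and 0.138 to 0.902 for Rab30, which the filter on level removed.

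Probe sets called in adenomas, 187 higher and 4 lower, became 709 and 503 with array weights and 67 and 2 with the replicate block. After quantile normalization 51 were lower. The filter on level left 121 higher, but it tested only probe sets above the median level, so that count comes from fewer probe sets. Without 1 array the counts ran from 91 to 351 higher and from 1 to 154 lower, with both highest counts without FP-high replicate 1 (348 and 151 with each remaining normal array counted once). Without FP-low replicate 6, counted so, 7 were lower. With the replicate block, Tbpl1 differed by 0.77 (adjusted p = 0.459). For arrays sharing a number, deviations from group means correlated at 0.10 to 0.23 for adenoma with FP-high arrays. The values were -0.12 to 0.06 for adenoma with FP-low and -0.36 to 0.18 for FP-high with FP-low. Such correlations alone cannot show whether arrays are pairs. Xist and Eif2s3y read 8.88 to 9.71 and 2.01 to 2.22 on adenoma replicates 1 to 3. On FP-high and FP-low replicates 1 to 3 they read 2.34 to 3.61 and 4.43 to 6.28. Adenomas and normal arrays of the same number thus differed in sex, so the replicate block did not join adenoma and normal arrays of one animal. Without FP-high replicate 1 the median difference changed sign for Zdhhc2 substrates (0.0084), Rab GTPases (0.046), epithelium (0.16) and goblet markers (0.13). The causes were not tested. Versions of the authors' software are unknown, and 3 to 6 arrays a group limit the precision of every value.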
